A study of Arabidopsis thaliana with 6 samples.

Results

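The transcripts of 9 genes for nucleolar proteins of small nucleolar ribonucleoproteins (snoRNPs) and of rRNA processing were followed in seedlings of Arabidopsis thaliana. They are NUC1 (AT1G48920), NUC2 (AT3G18610), FIB1 (AT5G52470), FIB2 (AT4G25630), NOP56 (AT1G56110), NOP5-1 (AT5G27120), NOP5-2 (AT3G05060), CBF5 (AT3G57150) and APUM24 (AT3G16810). They were chosen by identifier, with their levels in the comparison of wild type and vih1vih2 already known, so their differences between these groups are described here without a test. All 9 had a row among the 26800 gene identifiers kept, and all 9 were among the 22818 genes that passed the filter on low counts. The study sequenced RNA of entire 12-day seedlings, kept at 22 °C on MS medium with sucrose, in 3 libraries labelled as wild type (Col-0) and 3 labelled vih1vih2, a double mutant of the genes VIH1 and VIH2. These genes encode kinases that make the inositol pyrophosphate InsP8, named in the series title as a phosphate signal inside the cell. The labels give no alleles and do not say that replicates were grown separately, so p-values measure only the spread between these libraries. Nothing in the labels speaks of a treatment that differed between the groups.

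Box C/D snoRNPs guide ribose methylation of rRNA. Their shared proteins are fibrillarin, which is the methyltransferase, the scaffold proteins NOP56 and NOP58 (called NOP5 in plants), and an SNU13 (15.5K) protein that binds the snoRNA. Box H/ACA snoRNPs guide pseudouridylation, and CBF5, the plant dyskerin, is their pseudouridine synthase. Nucleolin (NUC1, NUC2) acts in the transcription and early processing of pre-rRNA, and APUM24 is a nucleolar Pumilio-repeat protein needed for pre-rRNA processing. In Arabidopsis, NUC1 is the nucleolin of most tissues, while NUC2 is known to be little expressed unless NUC1 is lost. Growing, dividing cells make most new ribosomes, so these genes are known for high expression in meristems and young organs.

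The libraries held 42697387 to 64410871 counts, and 1 count was worth 0.0165 to 0.0245 CPM, the count relative to the size of the library, after scaling by the trimmed mean of M values (TMM). Of the genes tested, 4891 were called higher and 4433 lower in the libraries labelled as vih1vih2. The transcripts of both targeted genes were more abundant, not less, in those libraries. VIH2 gave 45.6, 59.9 and 56.6 CPM in the libraries labelled as wild type and 608, 695 and 725 CPM in those labelled as vih1vih2. VIH1 gave 5.37, 7.77 and 6.03 CPM against 31.2, 30.02 and 34.1 CPM. A count over a whole gene does not show whether a transcript is intact, so the labels are not checked by these genes, and every direction below rests on them. The mix of transcripts in the seedlings also differed. All 7 green leaf markers tested fell, their summed level going from 60315 to 61549 CPM down to 23623 to 23775 CPM. Of 19 dividing-cell markers, 10 fell and none rose (390 to 435 CPM summed, against 231 to 384 CPM). With any library left out, 7 to 8 of these markers fell and none rose. The last sum is widened by TSO2, which was not called and gave 137, 4.08 and 68.6 CPM in the libraries labelled as vih1vih2. Of 11 root markers, 4 fell and 1 rose, and these markers summed to 147 to 165 CPM against 138 to 141 CPM. CASP1, CASP2, PLT1 and COBL9 fell, and WOX5 rose, a call lost without vih1vih2 replicate 2, vih1vih2 replicate 3, wild type replicate 1 or wild type replicate 3. Of 4 shoot meristem markers, 2 were tested, of which ANT fell and STM rose. Of 4 seed storage markers, 1 was tested, CRA1, and it fell, a call lost without vih1vih2 replicate 2, vih1vih2 replicate 3, wild type replicate 2 or wild type replicate 3. These seed markers summed to at most 1.44 CPM. The part of these shifts in the values below was not tested, and in a bulk sample fewer cells of a type and less RNA per cell cannot be told apart.

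The level of 8 of the 9 nucleolar genes differed little or irregularly between the groups, and NUC2, the minor nucleolin, was the exception. The median log2 fold change (vih1vih2 over wild type, on the TMM scale) was 0.01 over the 9 genes and -0.00 over all genes tested, and the median absolute log2 fold change was 0.11 for the 9 against 0.47 for all. Of the 9, 7 lay within 0.2 of 0 on the log2 scale, as did 5543 of the 22818 genes tested. These sets are not matched on level. All of the 9 but NUC2 had a mean of 17.1 CPM or more, while the genes tested reach down to the filter on low counts. At the threshold used throughout (adjusted p under 0.05 in the edgeR quasi-likelihood fit over all genes), 1 of the 9 was called, NUC2, where 40.9% of all genes tested were called. That call is printed as the fit gave it and is no test of the 9, which were selected on this contrast, and nothing is read from the count. The TMM-scaled CPM of the groups did not overlap for 4 of the 9 (NUC2, FIB1, NOP56 and NOP5-1), a background of 56.4% over all genes.

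**Figure D1:**
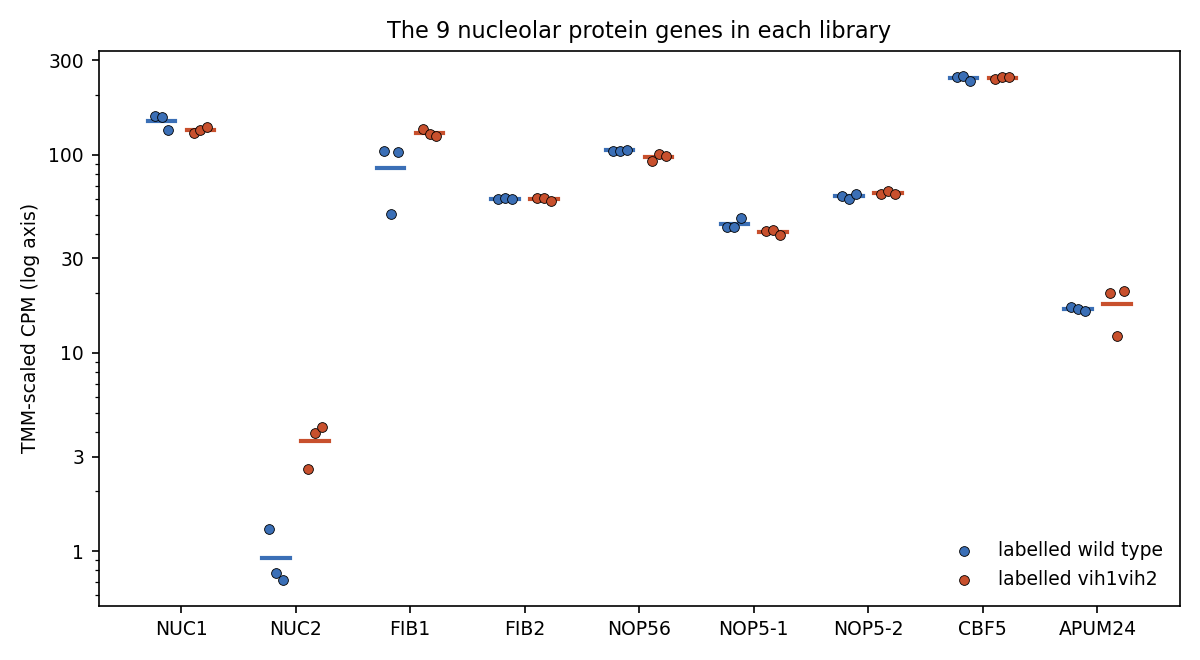
TMM-scaled CPM (log axis) of the 9 nucleolar protein genes, with a point for each of the 3 libraries labelled as wild type (blue) and the 3 labelled vih1vih2 (orange) and a line at each group mean. NUC2 is the lowest gene in both groups and has the widest gap between group means (0.925 and 3.601 CPM), while 1 library of FIB1 (50.4 CPM) and 1 of APUM24 (12.1 CPM) lie apart from the rest of their groups.

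Nucleolin came almost wholly from NUC1 in both groups. NUC1 (chr1:18098081-18101732, plus strand, 15 exons) gave 158, 156 and 133 CPM in the libraries labelled as wild type and 129, 133 and 139 CPM in those labelled as vih1vih2. The ranges overlapped, with the lowest wild-type library inside the mutant range, and the log2 fold change was -0.16 ± 0.08 (SE, n = 3 per group). Without wild type replicate 3 it was -0.24. NUC1 overlaps AT1G48930 on the other strand, which was counted at 10.7 to 15.8 CPM, and no source used here gives the strand setting of the counting, so a small exchange of reads between them cannot be told apart from expression.

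NUC2 (chr3:6404053-6407946, minus strand, 18 exons) was counted 78, 36 and 29 times in the libraries labelled as wild type, which is 1.29, 0.775 and 0.711 CPM. In those labelled vih1vih2 it was counted 144, 201 and 227 times, which is 2.59, 3.96 and 4.25 CPM. The lowest mutant library held 2.59 CPM and the highest wild-type library 1.29 CPM, so the groups were separate, although the spread within each was wide (1.82 and 1.64 times from lowest to highest). The log2 fold change was 1.95 ± 0.32, or 3.86-fold. Across the 13 other settings in which it was tested, among them each library left out, it lay between 1.79 and 2.27. At the level of the seedling this was a change within a small pool. Summed over both nucleolins, the level was 150 ± 14.0 CPM (SD, n = 3) in the libraries labelled as wild type and 137 ± 5.77 CPM in those labelled as vih1vih2, and the ranges overlapped. Per transcript length, NUC2 made up 0.753%, 0.459% and 0.494% of nucleolin transcripts in the first group and 1.83%, 2.69% and 2.77% in the second. The transcripts of NUC1 and NUC2 share no stretch of 50 bases, and the same holds for the fibrillarin pair, the NOP5 pair, and NOP56 with its paralogue AT3G12860.

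**Figure D2:**
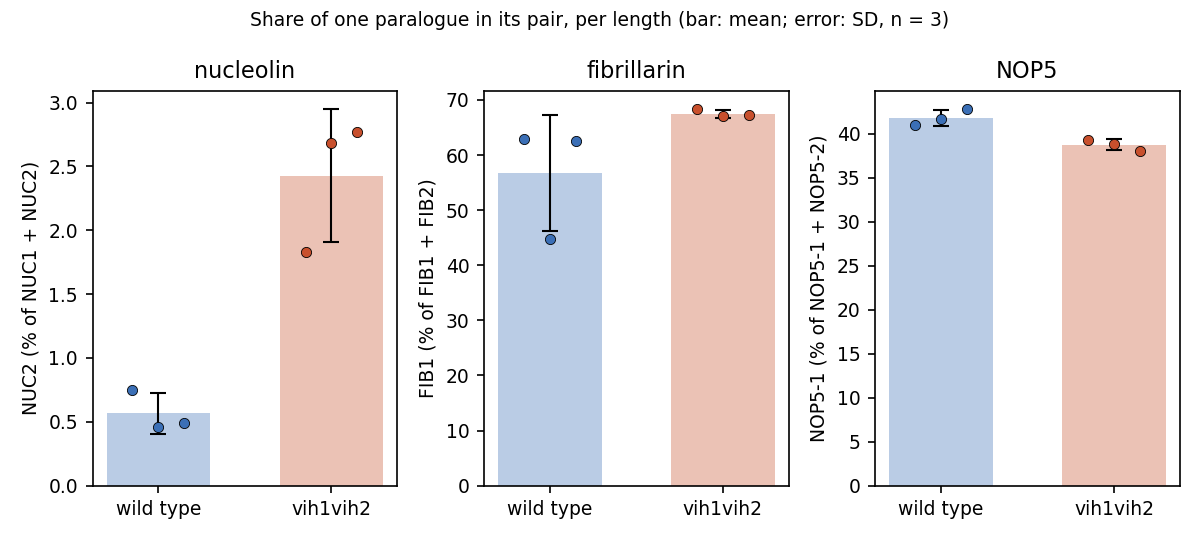
Share of NUC2, FIB1 and NOP5-1 in their paralogue pairs (%), from CPM per kilobase of spliced transcript. Bars are means, error bars SD (n = 3) and points libraries. NUC2 remains under 3% of its pair in every library, and FIB1 shows the one low wild-type library at 44.7%.

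Of the 2 fibrillarins, FIB2 was level and FIB1 was not. FIB2 (chr4:13074090-13076432, plus strand, 7 exons) gave 59.8, 60.5 and 59.7 CPM against 60.8, 60.9 and 58.8 CPM. The ranges overlapped, the ratio of the highest to the lowest library was 1.01 in the first group and 1.04 in the second, and the log2 fold change was 0.00 ± 0.05. FIB1 (chr5:21294147-21296819, plus strand, 7 exons) gave 105, 50.4 and 103 CPM in the libraries labelled as wild type and 135, 128 and 124 CPM in those labelled as vih1vih2. Every mutant library was above every wild-type library, but wild type replicate 2 held less than the others of its group, by 2.07 times from highest to lowest. The log2 fold change was 0.58 ± 0.29 with all libraries and 0.31 without wild type replicate 2. A spread of this size is not rare in the table: among the 13408 genes with a mean of at least 10 CPM, 13.4% had a ratio of 2 or more between the highest and the lowest wild-type library, and the same share had one in the mutant group. Per length, FIB1 made up 62.9%, 44.7% and 62.6% of fibrillarin transcripts in the libraries labelled as wild type and 68.3%, 67.0% and 67.2% in those labelled as vih1vih2, so FIB1 was the major form in every library but wild type replicate 2. The means of this share lay 10.8 percentage points apart, and 4.73 without that library.

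Among the scaffolds, NOP56 (chr1:20984273-20986952, minus strand, 8 exons) gave 105, 105 and 106 CPM against 93.1, 101 and 99.3 CPM. On the TMM scale, all 3 mutant libraries were below all 3 wild-type libraries, by a log2 fold change of -0.11 ± 0.05. Across 14 other settings the log2 fold change of NOP56 lay between -0.13 and 0.05, so its direction depends on the setting. NOP5-1 (chr5:9540861-9544065, plus strand, 9 exons) gave 43.0, 43.1 and 47.8 CPM against 41.3, 42.0 and 39.4 CPM. On this scale there was again no overlap and again a small step, -0.13 ± 0.07. Across 14 other settings the log2 fold change of NOP5-1 lay between -0.16 and 0.03, so its direction also depends on the setting. NOP5-2 (chr3:1412867-1416056, minus strand, 9 exons) gave 61.7, 60.05 and 63.7 CPM against 63.5, 65.8 and 63.8 CPM, and its ranges overlapped (0.06 ± 0.05). The names NOP5-1 and NOP5-2 are not RefSeq's, which lists both loci as NOP56-like pre-RNA processing ribonucleoproteins. As a share of the NOP5 pair per length, NOP5-1 fell short of NOP5-2 in all 6 libraries, at 41.0%, 41.7% and 42.8% in the libraries labelled as wild type and 39.3%, 38.9% and 38.1% in those labelled as vih1vih2. These shares did not overlap, and their means lay 3.05 percentage points apart, with SDs of 0.901 and 0.625.

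CBF5 (chr3:21153815-21156075, minus strand, a single exon) was the most abundant of the 9. It gave 246, 250 and 237 CPM against 243, 247 and 248 CPM, and the mutant values lay within the wild-type range (log2 fold change 0.01 ± 0.04). APUM24 (chr3:5723222-5727664, minus strand, 17 exons) gave 17.1, 16.7 and 16.3 CPM against 20.2, 12.1 and 20.4 CPM. Here it was vih1vih2 replicate 2 that stood below all other libraries, with the remaining mutant libraries above all wild-type libraries. The log2 fold change was 0.08 ± 0.22, and 0.28 without that library.

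Per kilobase of spliced transcript, the order of the levels in the libraries labelled as wild type was CBF5 (108 ± 3.002 CPM per kilobase, SD, n = 3), NUC1 (71.2 ± 6.61), FIB1 (62.3 ± 22.4), NOP56 (55.5 ± 0.452), FIB2 (44.8 ± 0.338), NOP5-2 (29.4 ± 0.866), NOP5-1 (21.1 ± 1.29), APUM24 (7.37 ± 0.185) and NUC2 (0.411 ± 0.141). FIB1 could not be placed against its neighbours NUC1 and NOP56, nor against FIB2, because its own SD spans all of them. In the libraries labelled as vih1vih2 the order was the same except that FIB1 (93.4 ± 3.97) came before NUC1 (63.9 ± 2.37). The 9 genes together took 747, 702 and 734 unscaled CPM in the libraries labelled as wild type and 828, 840 and 840 in those labelled as vih1vih2. On TMM-scaled values the sums were closer, 743 to 796 CPM against 788 to 797 CPM. With library totals alone as the scale, the median log2 fold change of all genes moved up by 0.16, and that of the 9 genes moved to 0.16.

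The promoters of these genes are shown because the letters they share were not used to choose them. A pair of short motifs known from plant ribosome biogenesis genes were searched on both strands, the telo box (AAACCCTA) and site II (TGGGCC or TGGGCT). In windows from 250 bases before the RefSeq transcript start to 50 after it, the telo box was found in 8 of the 9 genes (88.9%), all but APUM24, and in 6.22% of the windows of 27443 protein-coding genes. Site II was found in 6 of the 9 (66.7%) and in 21.7% of all windows, and both motifs in 6 of the 9 and in 2.2% of all windows. NUC2 and FIB2, which held the telo box without site II, carried it after the transcript start, at positions 43 and 25. NUC1 (positions 2 and 38), NOP5-2 (position 1) and CBF5 (positions 9 and 19) also carried it only after the start. Upstream of the start, telo boxes began at position -207 in FIB1, -17 in NOP56 and -44 in NOP5-1. A match is a description of letters and not of a bound site. The 250 bases upstream of the start are given for FIB1, FIB2, NUC2, NOP56 and NOP5-1, from RefSeq (build TAIR10.1). They run in the direction of transcription, with the motif letters in capitals.
FIB1 (chr5:21293897-21294146, plus strand): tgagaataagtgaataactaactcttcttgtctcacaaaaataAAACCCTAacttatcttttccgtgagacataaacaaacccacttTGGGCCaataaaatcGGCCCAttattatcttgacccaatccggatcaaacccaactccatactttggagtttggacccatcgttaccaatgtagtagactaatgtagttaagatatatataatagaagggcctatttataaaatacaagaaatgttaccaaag
FIB2 (chr4:13073840-13074089, plus strand): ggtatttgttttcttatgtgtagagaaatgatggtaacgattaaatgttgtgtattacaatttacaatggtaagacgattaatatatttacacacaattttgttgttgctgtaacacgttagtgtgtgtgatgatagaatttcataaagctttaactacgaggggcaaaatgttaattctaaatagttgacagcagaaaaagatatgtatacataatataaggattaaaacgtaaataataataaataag
NUC2 (chr3:6407947-6408196, minus strand): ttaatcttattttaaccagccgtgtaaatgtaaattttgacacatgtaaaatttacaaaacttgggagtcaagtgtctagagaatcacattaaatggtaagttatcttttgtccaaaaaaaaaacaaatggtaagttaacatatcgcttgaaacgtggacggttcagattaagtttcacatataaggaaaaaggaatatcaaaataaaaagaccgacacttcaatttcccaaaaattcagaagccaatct
NOP56 (chr1:20986953-20987202, minus strand): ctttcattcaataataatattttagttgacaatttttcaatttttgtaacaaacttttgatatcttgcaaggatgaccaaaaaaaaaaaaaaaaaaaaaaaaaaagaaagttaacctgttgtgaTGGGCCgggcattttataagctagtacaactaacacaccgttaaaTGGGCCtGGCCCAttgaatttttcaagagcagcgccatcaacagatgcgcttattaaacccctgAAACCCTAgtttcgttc
NOP5-1 (chr5:9540611-9540860, plus strand): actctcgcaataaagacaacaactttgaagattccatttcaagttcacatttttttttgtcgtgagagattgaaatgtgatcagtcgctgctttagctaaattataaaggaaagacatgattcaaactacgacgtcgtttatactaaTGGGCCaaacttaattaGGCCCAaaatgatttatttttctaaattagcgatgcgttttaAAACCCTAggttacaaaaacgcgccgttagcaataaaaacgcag
The fibrillarin paralogues differ here: FIB1 has 1 telo box and 2 site II matches in this stretch, while FIB2 has none. NUC2 has none either, and its paralogue NUC1, not printed, has no telo box upstream and 1 site II match, at position -242. Of the other lists, the telo box was in 46.2% of the windows of 39 cytosolic ribosomal protein genes and of 26 genes for large subunit assembly. It was in 45.5% of 11 other snoRNP genes, 40% of 10 nuclease and exosome genes, 36.4% of 22 genes of the small subunit processome, 16.7% of 12 other nucleolar genes and 11.1% of 9 genes of RNA polymerase I. Site II was in 11.1% of the RNA polymerase I windows and in 45.5% to 74.4% of those of the other 6 lists just named.

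Most other genes of ribosome biogenesis were not called, and those that were lay in both directions. Over 5 lists (other snoRNP proteins, the small subunit processome, large subunit assembly, nucleases and exosome, and RNA polymerase I), 77 genes were tested, of which 57 were not called, 14 rose (18.2%) and 6 fell (7.79%), where 21.4% of all genes tested rose and 19.4% fell. The median log2 fold change of the 77 was -0.01. Without vih1vih2 replicate 2 or without vih1vih2 replicate 3 the number that rose was 9, and the number that fell was 6 to 8 with any library left out.

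Among other snoRNP proteins, 2 of 10 rose and 2 fell, in different directions. AT3G12860, a NOP56-like paralogue, rose from 9.44, 8.18 and 8.09 CPM to 11.4, 12.2 and 11.4 CPM (log2 fold change 0.44 ± 0.10, adjusted p = 0.0182). Its call was lost without vih1vih2 replicate 2 (adjusted p = 0.0588), wild type replicate 2 or wild type replicate 3. It was below NOP56 in every library. AT4G22380, an SNU13-like protein, rose from 19.5 to 20.8 CPM to 26.6 to 28.1 CPM (0.45 ± 0.07). GAR1, a core protein of box H/ACA particles beside CBF5, fell from 53.0, 49.5 and 50.7 CPM to 38.3, 36.3 and 33.8 CPM (-0.50 ± 0.07, adjusted p = 0.00363). NUFIP, an assembly factor of box C/D particles, fell from 12.0, 12.1 and 13.0 CPM to 7.77, 7.64 and 9.28 CPM (-0.59 ± 0.11). The best-expressed gene of the list not called was AT4G12600, also SNU13-like, with 90.1, 88.0 and 87.2 CPM against 38.8, 73.1 and 36.7 CPM. For AT4G12600, vih1vih2 replicate 2 lay between the wild-type libraries and the remaining mutant libraries. GAR1 thus fell beside CBF5, whose log2 fold change was 0.01.

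In the small subunit processome, which folds and cuts the early pre-rRNA, 5 of 22 rose and 2 fell (median 0.13). YAO rose by 0.41 ± 0.08 on the log2 scale, SWA1 by 0.36 ± 0.06 and NOC4 by 0.49 ± 0.11. DIM1A, an rRNA dimethyltransferase, fell, at -0.43 ± 0.08. The others, with a mean over the 6 libraries under 10 CPM, were NOF1 and RID2, which rose, and RID3, which fell. NOF1 kept its call only without wild type replicate 3 and RID2 only without vih1vih2 replicate 1 or wild type replicate 2. PCN, the best-expressed gene not called, gave 82.7, 50.02 and 122 CPM against 52.8, 48.2 and 49.3 CPM. The number that rose was 3 without vih1vih2 replicate 1 or vih1vih2 replicate 2, and 2 without vih1vih2 replicate 3 or wild type replicate 1. NOC4 lost its call without vih1vih2 replicate 1, vih1vih2 replicate 3, wild type replicate 1 or wild type replicate 2.

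In large subunit assembly, 4 of 26 rose and 1 fell (median -0.03). NSN1, a nucleostemin-like GTPase, rose from 39.5, 38.9 and 40.2 CPM to 59.2, 59.1 and 62.0 CPM (0.60 ± 0.05). EBP2 rose by 0.46 ± 0.08, SDA1 by 0.29 ± 0.08 and NMD3, an export adaptor, by 0.16 ± 0.05, a call that was lost without any of the 6 libraries. NOP2B, an rRNA methyltransferase of the NOP2 family, fell from 21.7, 21.0 and 21.3 CPM to 14.4, 13.3 and 12.4 CPM (-0.67 ± 0.09). PRH75, a nucleolar helicase and the best expressed of the list without a call, was level at 179 to 191 CPM against 175 to 188 CPM. The number that rose was 2 without vih1vih2 replicate 2, vih1vih2 replicate 3 or wild type replicate 2, and the number that fell was 2 without vih1vih2 replicate 1 or vih1vih2 replicate 3. SDA1 kept its call without wild type replicate 1 and lost it without any of the other libraries.

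Of 10 nucleases and exosome subunits, 2 rose and none fell at this threshold. XRN2, a nuclear 5′ exonuclease that trims rRNA precursors, rose by 0.28 ± 0.05 on the log2 scale, and XRN3, its better expressed paralogue, was not called (-0.12 ± 0.06). The other gene that rose was RRP41, an exosome subunit below the level set for naming, chosen after its values were seen (3.82, 2.84 and 3.04 CPM to 5.58, 6.28 and 6.37 CPM). Of 9 genes of RNA polymerase I, which transcribes the rRNA genes, the subunit NRPA2 rose by 0.34 ± 0.06 and the initiation factor RRN3 fell, from 34.7, 35.2 and 33.8 CPM to 16.8, 21.4 and 22.6 CPM (-0.77 ± 0.13). NRPA1, the largest subunit, was not called and gave 24.05, 36.7 and 38.2 CPM against 34.1, 51.1 and 47.7 CPM. Of 12 other nucleolar and nucleolar stress genes, 2 rose and none fell. S6K2, a kinase of the TOR pathway, rose from 14.7, 10.07 and 15.1 CPM to 32.9, 54.4 and 32.2 CPM (1.58 ± 0.28), and RAPTOR1B, a subunit of the TOR complex, by 0.22 ± 0.05. ANAC082, a transcription factor of nucleolar stress, was not called, with 56.6, 18.1 and 75.8 CPM against 144, 73.6 and 83.3 CPM.

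Of 39 listed genes for cytosolic ribosomal proteins, which are not the whole family, 5 rose and 5 fell (12.8% each), with a median log2 fold change of 0.00. Their summed level was 8318 to 8567 CPM in the libraries labelled as wild type and 8912 to 9424 CPM in those labelled as vih1vih2. The sum includes the rises of RPS15aA and RPS9B. RPS15aA rose from 77.2, 69.0 and 73.5 CPM to 442, 444 and 443 CPM (2.60 ± 0.06) and RPS9B from 101, 99.6 and 95.9 CPM to 331, 315 and 311 CPM (1.69 ± 0.05). RPL18B was called at 3.91 ± 1.13, but only 2 of its mutant libraries were high (154, 135 and 6.45 CPM against 5.77 to 7.08 CPM), and it kept its call only without vih1vih2 replicate 3 among the single libraries left out. RPS14A fell by 0.40 on the log2 scale. The other genes called were RPL10C and RPL27aC, which rose, and RPL8A, RPL9D, RPL11A and RPL12A, which fell. RPL11A lost its call without any of the 6 libraries, and RPL9D kept its call only without vih1vih2 replicate 3. RPS8A, the best expressed of those not called, gave 660 to 679 CPM against 599 to 651 CPM. Ribosomal protein genes are families of near-identical copies, and how the counting shared reads between copies is given in no source used here, so single copies are uncertain. The number that fell was 3 without vih1vih2 replicate 2 or wild type replicate 1. With library totals alone as the scale, 13 rose and none fell.

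**Figure D3:**
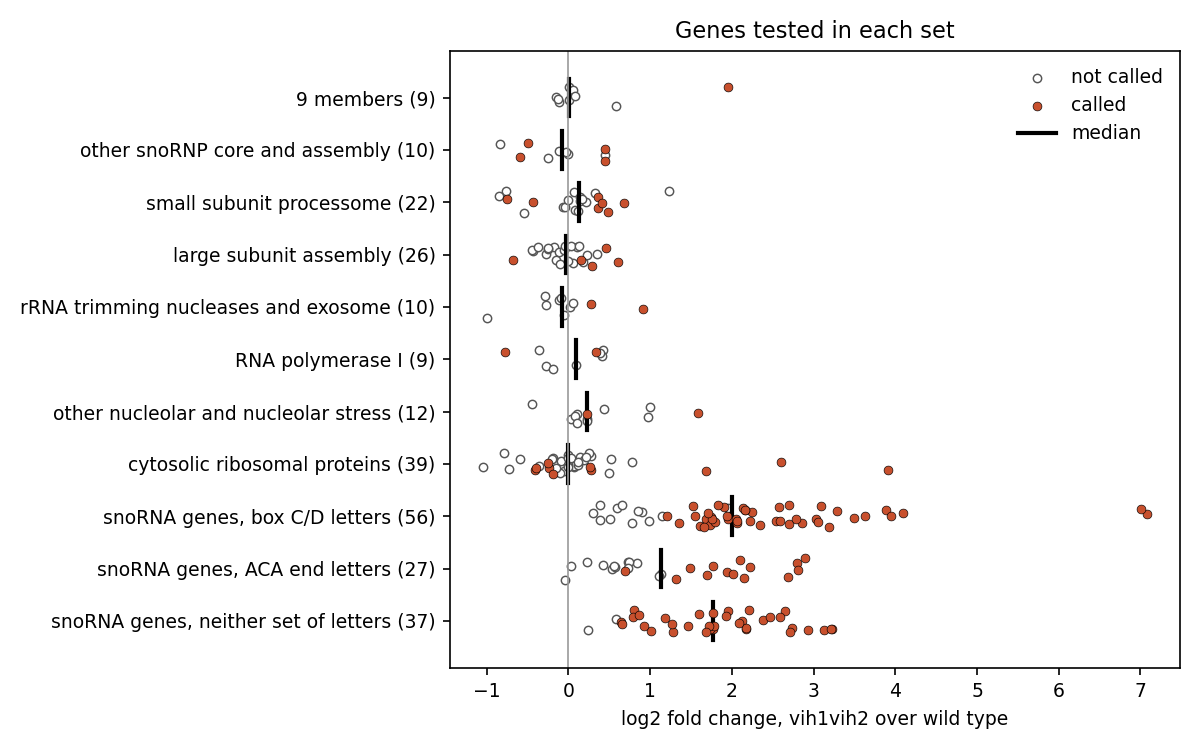
Log2 fold change (vih1vih2 over wild type, TMM scale) of each gene tested in the sets named on the left, with the number of genes in brackets. Filled points were called, open points were not, and the black bar is the median. The protein sets sit around 0, and the 3 sets of snoRNA genes have medians of 2.00, 1.13 and 1.77. The snoRNA sets include rows that passed the filter through the libraries labelled as vih1vih2 alone. The 2 points farthest to the right (AtU29 and AtsnoR28-1a) had no count in wild type, so their fitted values are no measure of size.

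The snoRNAs that these proteins bind were higher in the libraries labelled as vih1vih2 in most rows. RefSeq annotates 287 snoRNA genes, 252 of them with a row and 187 tested. They were looked at after their values had been seen, so the counts are a description. Of the 187, 138 were called higher and 3 lower, beside 21.4% and 19.4% of all genes. Of the 187 rows, 67 held exactly the counts of a row that is no snoRNA gene, such as a longer transcript around it, and the 3 that were lower (snoR162, AtsnoR84 and snoR102-2) were among them. The remaining 120 did not hold exactly the counts of any row that is no snoRNA gene. Part of their reads may still be shared with such a row, which was not tested. Of these 120, 93 were higher (77.5%) and none lower, and the median log2 fold change was 1.79, also with the 2 genes uncounted in wild type set at their bound (3 counts over that group). Some of the 120 are close neighbours, such as AT3G21805 and AtsnoR22-1, 56 bases apart, so the rows may not be independent. With any library left out, 71 to 82 of the 120 were higher and none lower. With the replicate number as a block in the fit, 65 of the 120 were higher and none lower. A row could pass the filter through the libraries labelled as vih1vih2 alone, and such a row had to differ. Among the 75 rows with at least 10 counts in each wild-type library, 58 were higher, none was lower, and the median was 1.74. As means over the 6 libraries, the 120 rows had a median of 0.839 CPM and a highest value of 11.1 CPM. APUM24, the next to lowest of the proteins, had 17.1 CPM. CPM is not corrected for length, and snoRNA genes are short. AT1G74456, the row with the highest value, is 82 bases long, and the spliced transcript of APUM24 is 2265. These values therefore do not rank snoRNAs against proteins per length.

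The splits below use all 120 rows, also any that passed the filter through the libraries labelled as vih1vih2 alone. They are a description and no test of a class. Sorted by letters, 44 of 56 rows with box C and box D letters were higher (median 2.00), as were 14 of 27 with the ACA end (median 1.13) and 35 of 37 with neither (median 1.77). Of the 95 that lie outside protein-coding genes 85 were higher (median 2.01), and of the 25 that lie inside one 8 were higher (median 0.66). Other short or non-coding classes had medians nearer 0: 0.39 for 10 tRNA genes (3 called higher and 2 lower), 0.26 for 24 snRNA genes, 0.02 for 77 miRNA genes, 0.10 for 778 lncRNA genes, and 0.05 for 80 protein-coding genes with under 300 bases of spliced transcript. The 4 rRNA rows moved with the snoRNA genes. The 5.8S row AT3G41979 gave 118, 120 and 126 CPM against 1205, 1169 and 1211 CPM. The 18S rows AT2G01010 and AT3G41768 were higher by 1.55-fold and 1.53-fold. AT2G01020 gave 46.4, 48.0 and 48.0 CPM against 405, 386 and 390 CPM. RefSeq annotates AT2G01020 as 5S, but it lies beside the 18S row AT2G01010, so its kind is uncertain and no rise of 5S rRNA is read from it. How RNA was selected for the libraries is given in no source used here, and its part in the levels of rRNA and snoRNA was not tested.

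The guide RNAs below are shown because they are what fibrillarin, NOP56 and NOP5 (box C/D) or CBF5 (ACA) bind, and because the snoRNAs U60.1F and U60.2F lie in intron 5 of FIB1 and of FIB2. Capitals mark box C (TGATGA) and box D (CTGA), or the ACA near the end. All are from RefSeq, build TAIR10.1.
U60.1F (chr5:21295736-21295809, plus strand): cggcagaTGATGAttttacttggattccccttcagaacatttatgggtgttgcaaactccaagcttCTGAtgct
U60.2F (chr4:13075563-13075635, plus strand): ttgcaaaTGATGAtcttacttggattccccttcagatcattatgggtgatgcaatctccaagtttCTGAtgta
AT3G21805 (chr3:7682362-7682452, plus strand): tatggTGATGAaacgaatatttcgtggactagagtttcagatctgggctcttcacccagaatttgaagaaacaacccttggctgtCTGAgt
AtsnoR22-1 (chr3:7682509-7682595, plus strand): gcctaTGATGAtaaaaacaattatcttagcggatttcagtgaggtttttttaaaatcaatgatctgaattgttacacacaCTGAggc
AtU65-2 (chr2:2184672-2184820, minus strand): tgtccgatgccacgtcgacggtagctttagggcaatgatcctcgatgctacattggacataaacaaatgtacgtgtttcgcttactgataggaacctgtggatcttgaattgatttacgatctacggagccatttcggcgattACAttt
U60.1F and U60.2F, 74 and 73 bases long, differ by 11 single-base edits. Neither had a row among the counts, so the fibrillarin genes cannot be set beside the snoRNAs they carry. The box C/D snoRNA gene AT3G21805 was counted 38, 22 and 14 times in the libraries labelled as wild type and 452, 340 and 368 times in those labelled as vih1vih2 (0.628, 0.473 and 0.343 CPM against 8.13, 6.70 and 6.90 CPM). AtsnoR22-1, its neighbour 56 bases away on the same strand, gave 0.711, 0.323 and 0.564 CPM against 7.09, 6.34 and 6.58 CPM. The groups were far apart for both, at log2 fold changes of 3.89 ± 0.25 and 3.63 ± 0.30. AtU65-2, with the ACA end, gave 1.55, 1.85 and 1.35 CPM against 10.3, 12.1 and 10.8 CPM (2.80 ± 0.16). U3, the snoRNA of the small subunit processome, was higher at both U3B (1.54, 1.18 and 1.13 CPM against 10.3, 15.1 and 10.7 CPM) and U3D (3.77, 3.98 and 3.11 CPM against 12.5, 17.6 and 12.2 CPM). An exception among the better counted rows was AtsnoR5b, with 3.29, 3.14 and 4.31 CPM against 3.54, 3.84 and 3.02 CPM, which overlapped. These single snoRNA genes were chosen after their values were seen.

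**Figure D4:**
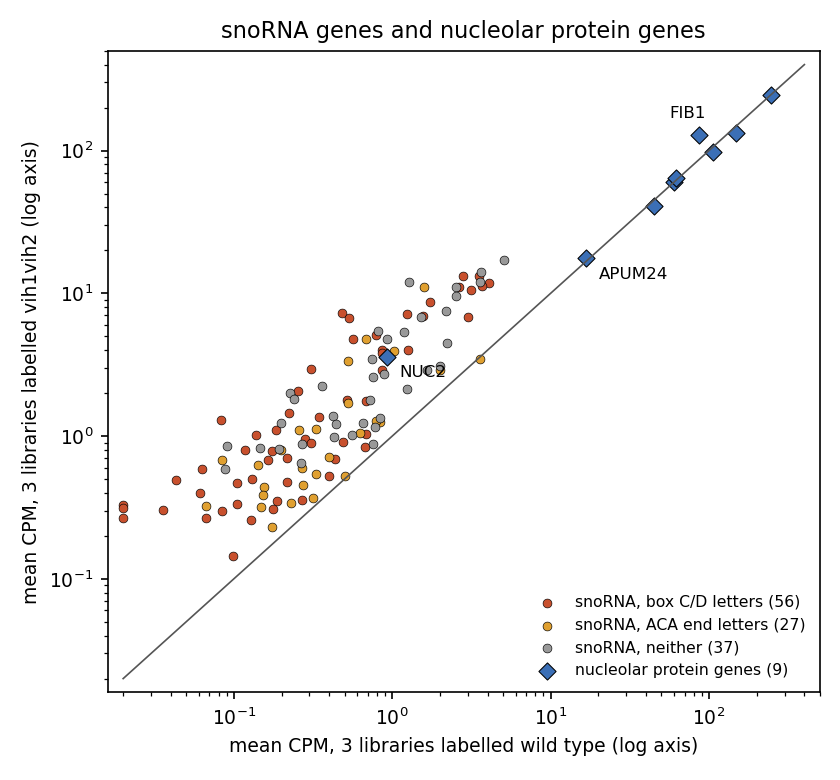
Mean CPM in the 3 libraries labelled as vih1vih2 against the 3 labelled wild type (both axes log). Points are the 120 snoRNA genes whose counts do not equal those of a row of another kind, and the 9 nucleolar protein genes. The line marks equal levels, and 3 snoRNA genes under 0.02 CPM in wild type are drawn at 0.02. The protein genes lie on or near the line apart from NUC2 and FIB1, and nearly all snoRNA genes lie above it. Some of these snoRNA genes passed the filter through the libraries labelled as vih1vih2 alone and so had to lie above it.

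The mean profile of the 9 genes, as log2(CPM + 1) centred on each gene's mean, was -0.01, -0.18 and -0.08 in the libraries labelled as wild type. It was 0.07, 0.07 and 0.13 in those labelled as vih1vih2. Every mutant library thus lay above every wild-type library, but a mean over 9 genes is moved by single genes. NUC2 and FIB1 had log2 fold changes of 1.95 and 0.58, while the other 7 lay within 0.2 of 0, in both directions. The profile is therefore no shared rise of the 9. Of 9149 other genes with a mean of at least 20 CPM, the 5 whose profile of log2(CPM + 1) over the 6 libraries lay nearest to the mean profile of the 9 were PEX7 (Euclidean distance 0.0450), BKI1 (0.0481), RPL34 (0.0643), AT3G58560 (0.0677) and AT1G28280 (0.0681). PEX7, the nearest, gave 40.7, 37.6 and 38.8 CPM against 44.0, 43.5 and 45.1 CPM. RPL34 is a cytosolic ribosomal protein that the list of 39 does not hold. Of the 50 nearest genes, 0 were among the 80 candidates from the lists of ribosome biogenesis and ribosomal proteins. With only 80 such genes among the 9149, any 50 genes would hold few or none, so nothing is read from this count.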

How the data were processed

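Raw read counts for each gene of 6 libraries were deposited by the authors. The submitters' processing notes name CASAVA 1.4, the aligner STAR 2.5.3a, also StringTie 1.3.3b, on build TAIR10. The labels name a directional library kit. No source used here gives the counting tool, its strand setting or the RNA selection. All 280 identifiers with 6 digits repeated the counts of another row and were left out (0.748% to 1.1% of a library). Counts were filtered (filterByExpr), scaled by TMM and fitted with edgeR 4.0.16 (quasi-likelihood, group as the only term) in R 4.3.3, with Benjamini-Hochberg adjustment over all 22818 genes. The fit was tested on simulated data. The members and lists were chosen with earlier results of these data known. Named genes were all members, VIH1, VIH2, and per list the 4 called genes of largest change with a mean of at least 10 CPM and the best-expressed gene not called. They also include the NOP56-like paralogue and the 5 nearest profiles. Other called genes of the lists that the text names, and the single snoRNA and rRNA genes, were chosen after their values were seen. Alternatives were DESeq2 1.42.0 (size factors, Wald test), limma 3.58.1 (voom), other filters and scales, a threshold of 0.01, each library left out and a replicate block. Libraries of a group were not copies (chi-square per degree of freedom 121 to 148). Coordinates and sequences are RefSeq's, build TAIR10.1. Figures used matplotlib in Python.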

Additional observations from a re-analysis of the deposited data

How the results depend on the processing

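The median log2 fold change of the 9 genes moved beyond the replicate spread under library totals alone (0.164), where the median of all genes moved by 0.157 as well. The filter of 5 CPM left out NUC2. At a threshold of 0.01, 3136 genes were called higher and 2623 lower, and in the ribosome biogenesis lists 6 were called higher. Among ribosomal proteins that threshold gave 3 higher and 1 lower, and library totals alone 13 higher and 0 lower. Of the snoRNA genes, 45 were called higher under the filter of 5 CPM. That filter is no check of them, since 28 of the 58 rows it kept were under 5 CPM in every wild-type library. Of the snoRNA genes, 1 was called lower at 0.01, and 0 were called lower once rows with the counts of another kind of row were left out (added after the data were seen). With 1 library left out at a time, 9 to 11 genes of the ribosome biogenesis lists were called higher, and 3 to 5 ribosomal proteins lower. The cause of these moves was not tested, apart from the fewer genes or stricter threshold of 2 of the settings.

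Same-numbered libraries did not deviate together (correlations of 0.0331, -0.0329 and -0.0104 over 16599 genes), so the replicate number was not taken as a pairing. With the replicate block, 7 genes of the ribosome biogenesis lists were called higher and 3 ribosomal proteins lower, and the median of the 9 genes was 0.00779. Depth limits NUC2 (29 to 227 counts) and the snoRNA genes most.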
